A study of Homo sapiens with 16 samples.

Results

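The lysosomal gene module held 56 genes that encode soluble proteases, other acid hydrolases with their cofactors, membrane proteins of the lysosome, the MiT/TFE transcription factors and subunits of the vacuolar proton pump (V-ATPase). Its members were listed by name and not by a cut on their values, but with earlier results of these data known. Each was matched to a row of the gene count table through its Ensembl identifier in GENCODE. All 56 members were found among the 60676 genes of the table, each under 1 identifier, and all 56 passed the filter on low counts that left 16503 genes to test. They comprised 9 soluble proteases, 15 glycosidases and sulfatases, 8 lipid hydrolases and cofactors, 7 membrane proteins, 3 MiT/TFE factors, 7 subunits of the V0 sector or accessory subunits of the pump, and 7 subunits of its V1 sector.

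Lysosomes degrade proteins, glycans and lipids with hydrolases that work at acidic pH. The pH is set by the V-ATPase, in which the V1 sector hydrolyses ATP on the cytosolic face and the membrane-bound V0 sector conducts protons into the lumen. The factors TFEB, TFE3 and MITF bind E-box motifs known as CLEAR elements in promoters of many lysosomal genes, and macrophages are known for a large lysosomal compartment that digests what they engulf.

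The data were RNA sequencing counts from THP-1, a cell line from a patient with acute monocytic leukemia that takes on macrophage features when treated with phorbol-12-myristate-13-acetate (PMA). All cells carried a lentiviral short hairpin RNA and had been selected with puromycin. The hairpins were labelled shUHRF1 (against UHRF1, which recruits DNMT1 to replicated DNA), shDNMT1 (against the maintenance DNA methyltransferase), shDNMT3B (against a de novo DNA methyltransferase) and shNC (a negative control). Each line was kept for 48 h with 100 ng/ml PMA or with its solvent DMSO, and 2 libraries were sequenced for each of the 8 groups. Whether each line was a pool or a clone was not given in the sources used here, and the labels do not say whether the 2 libraries of a group came from separate cultures, so p-values measure only the spread between these libraries. In bulk RNA, a smaller number of cells of one kind and less RNA per cell cannot be told apart.

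The CLEAR consensus contains the E-box CACGTG within the longer motif TCACGTGA. Both motifs read the same on both strands, and every TCACGTGA also counts as a CACGTG. They were searched in RefSeq promoters (GRCh38.p14, 250 bases before to 50 bases after the gene start), where 42 of 56 members had an entry. CACGTG was present in 9 of 42 member promoters (21.4%) and in 2030 of 27305 promoters overall (7.43%), and TCACGTGA in 5 of 42 (11.9%) and 283 of 27305 (1.04%). The promoters with the longer motif are shown because they belong to a protease, a glycosidase, 2 membrane proteins and a pump subunit, so that 4 role groups are represented. Capitals mark the matches, and each 80-base window is written 5′ to 3′ on the strand of the gene.
CTSA, carboxypeptidase cathepsin A, chr20:45891273-45891352, plus strand: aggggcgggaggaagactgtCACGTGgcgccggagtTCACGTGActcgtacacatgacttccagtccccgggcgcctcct
GAA, acid alpha-glucosidase, chr17:80101468-80101547, plus strand: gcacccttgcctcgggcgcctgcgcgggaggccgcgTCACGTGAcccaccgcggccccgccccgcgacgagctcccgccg
LAMP1, a major lysosomal membrane glycoprotein, chr13:113297174-113297253, plus strand: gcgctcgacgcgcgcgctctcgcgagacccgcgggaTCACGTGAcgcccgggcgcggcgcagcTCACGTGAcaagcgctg
MCOLN1, the cation channel mucolipin-1, chr19:7522546-7522625, plus strand: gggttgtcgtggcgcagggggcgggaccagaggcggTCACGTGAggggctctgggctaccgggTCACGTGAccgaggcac
ATP6V0D1, a V0 subunit, chr16:67481174-67481253, minus strand: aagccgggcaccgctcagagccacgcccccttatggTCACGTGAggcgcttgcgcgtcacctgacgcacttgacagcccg

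The longer motif matched 2 times each in the promoters of GAA, LAMP1 and MCOLN1 and 1 time each in those of CTSA and ATP6V0D1. Every match began upstream of the annotated start, the farthest of them at position -77 (GAA). CTSA, LAMP1 and MCOLN1 each held a second CACGTG in the window shown. CTSD, NEU1, CD63 and ATP6V0B held CACGTG without the longer form. No entry of the lipid group (6 of 8 members had one), the MiT/TFE factors (3 of 3) or the V1 sector (3 of 7) held either motif. The other members of these groups were not searched. A match is a description of these letters and not a measured binding site. The median log2 fold change of PMA over DMSO in shNC was 1.63 for the 9 members with CACGTG and 1.46 for the 33 without it.

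Total counts ran between 13883556 and 23151864 per library. Libraries numbered 1 (20384066 to 23151864) were deeper than those numbered 2 (13883556 to 15679327) and held more mitochondrially encoded RNA, with shares of 7.71% to 19.5% in PMA and 24.4% to 29.0% in DMSO against 3.92% to 9.35% and 9.86% to 14.5% in libraries numbered 2. Of the macrophage genes checked, MMP9 was 4787 to 25705 CPM (counts scaled to a common library total after TMM normalization) in the 8 PMA libraries and 0.489 to 11.4 CPM in the 8 DMSO libraries, and CSF1R 651 to 1267 CPM and 18.4 to 38.7 CPM. MARCO differed between lines, at 0.487 to 1.77 CPM in the PMA libraries and 0.808 to 3.26 CPM in the DMSO libraries of shUHRF1, shDNMT1 and shNC, and at 11.8 and 10.1 CPM against 2.64 and 2.24 CPM in shDNMT3B. MMP9 was lower in PMA libraries labelled shDNMT3B, at 4904 and 4787 CPM against 14476 and 11712 CPM in shNC. CSF1R was lower there too, at 684 and 651 CPM against 1267 and 1115 CPM. LPL and CCL2 were also lower there, CD14 was higher like MARCO, and ITGAM and SPP1 overlapped shNC. Titles and descriptions in the sample records disagreed for 12 of 16 samples, and groups follow the descriptions, which equal the column names. For treatment, MMP9 went with the descriptions. It was 14476 and 11712 CPM in the libraries described as shNC with PMA and titled shDNMT1, DMSO. In those described as shUHRF1 without PMA and titled shNC, PMA, it was 6.97 and 8.89 CPM. These values do not settle which line a library came from. None of the 3 hairpin targets was called lower in its own line. UHRF1 was 9.62 and 12.2 CPM in the PMA libraries labelled shUHRF1 against 4.62 and 7.43 CPM in shNC, and 72.0 and 91.2 CPM against 87.1 and 123 CPM in DMSO. DNMT1 was 84.1 and 99.7 CPM in PMA libraries labelled shDNMT1 against 56.9 and 78.0 CPM, and 82.4 and 111 CPM against 89.6 and 140.2 CPM in DMSO. DNMT3B was higher in PMA libraries labelled shDNMT3B, at 2.74 and 3.19 CPM against 1.26 and 1.59 CPM (log2 fold change 1.06, adjusted p = 0.00688 by edgeR's quasi-likelihood test). Globin RNAs (HBA1, HBA2 and HBB at 71.6, 184 and 232 CPM) were found in shNC DMSO replicate 1 and stayed at or below 1.3 CPM in the other 15 libraries, and the erythroid genes ALAS2 (1.89 CPM) and AHSP (0.105 CPM) had counts in that library and 0 in the other 15. HBD and GYPB were at 0 throughout.

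Most of the module was higher in PMA than in DMSO. In shNC cells, 48 of 56 members were called higher in PMA and 0 lower (adjusted p under 0.05 by edgeR's quasi-likelihood test over all 16503 genes, no fold change limit), where 28.4% of all genes tested were called higher and 26.0% lower. The counts higher were 53, 52 and 52 in the lines labelled shUHRF1, shDNMT1 and shDNMT3B, beside 29.4%, 28.6% and 25.2% of all genes, and 0 members were lower in each, beside 25.5%, 24.1% and 19.7% of all genes. No member was lower at an unadjusted p under 0.05 in any line, or with DESeq2 or the exact test after DEGES normalization. The median log2 fold change of the members was 1.58, 1.52, 1.44 and 1.61 in shUHRF1, shDNMT1, shDNMT3B and shNC, beside medians of all genes between -0.005 and 0.020. The 46 members called higher in all 4 lines made up most of the module, where 19.1% of all genes passed in all 4. For 43 members every one of the 8 PMA libraries lay above every one of the 8 DMSO libraries, against 20.7% of all genes. With upper-quartile factors instead of TMM, the median of all genes moved to between -0.312 and -0.219 and the median of the members was 1.28, 1.26, 1.20 and 1.33, with 45, 47, 44 and 41 called higher in shUHRF1, shDNMT1, shDNMT3B and shNC.

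**Figure D1:**
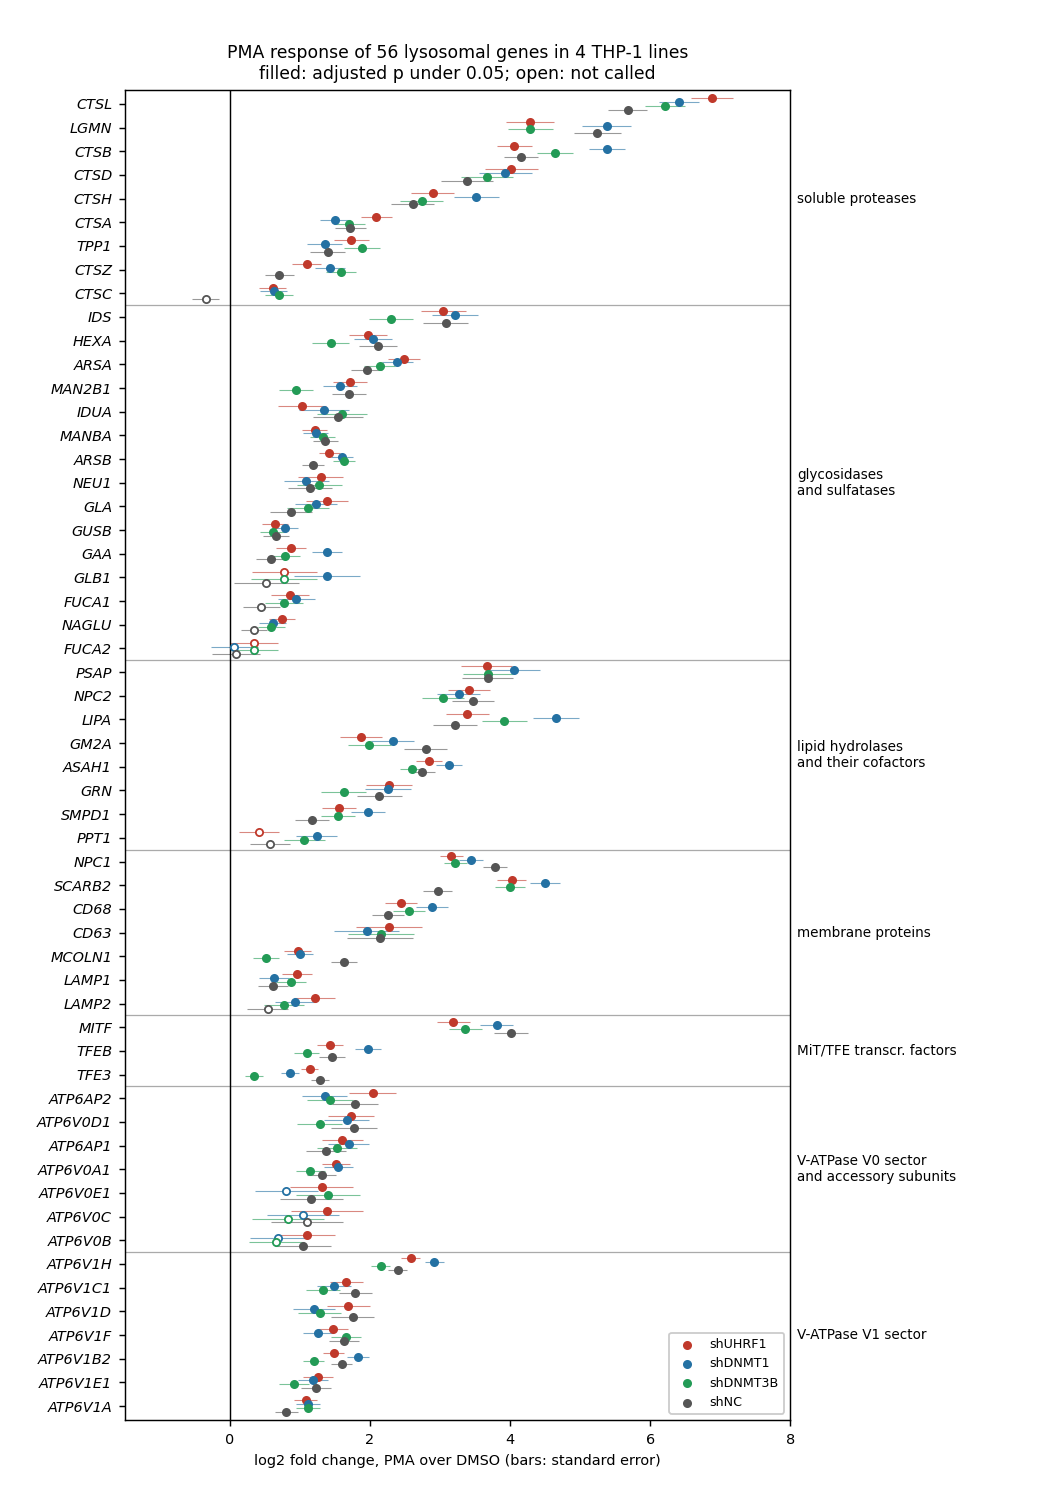
Log2 fold change of PMA over DMSO (horizontal axis, points with bars of 1 standard error) for the 56 members, grouped by role, in the 4 lines. Filled points were called by edgeR's quasi-likelihood test at an adjusted p under 0.05, 48 of 56 in shNC, and CTSC is the 1 member with an estimate under 0 in that line.

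Together the members held 3.40% to 4.54% of all counts in PMA libraries and 0.725% to 1.20% in DMSO libraries. Their summed level was 35212 to 50221 CPM in PMA and 7393 to 9317 CPM in DMSO, with a ratio of the group means of 5.41, 5.47, 4.83 and 4.44 in shUHRF1, shDNMT1, shDNMT3B and shNC. The soluble proteases carried the largest ratio of the 7 role groups in all 4 lines, at 13.7, 13.9, 12.6 and 9.73 in the same order. Membrane proteins followed at 5.13, 4.75, 4.82 and 3.996, and glycosidases and sulfatases stood at 2.42, 2.35, 1.99 and 2.14. For the V0 and accessory subunits the ratio was 2.78, 2.14, 2.17 and 2.47, and for the V1 subunits 2.84, 2.998, 2.50 and 2.96. Sums are weighted toward abundant transcripts, so each role group is also described by its members.

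**Figure D2:**
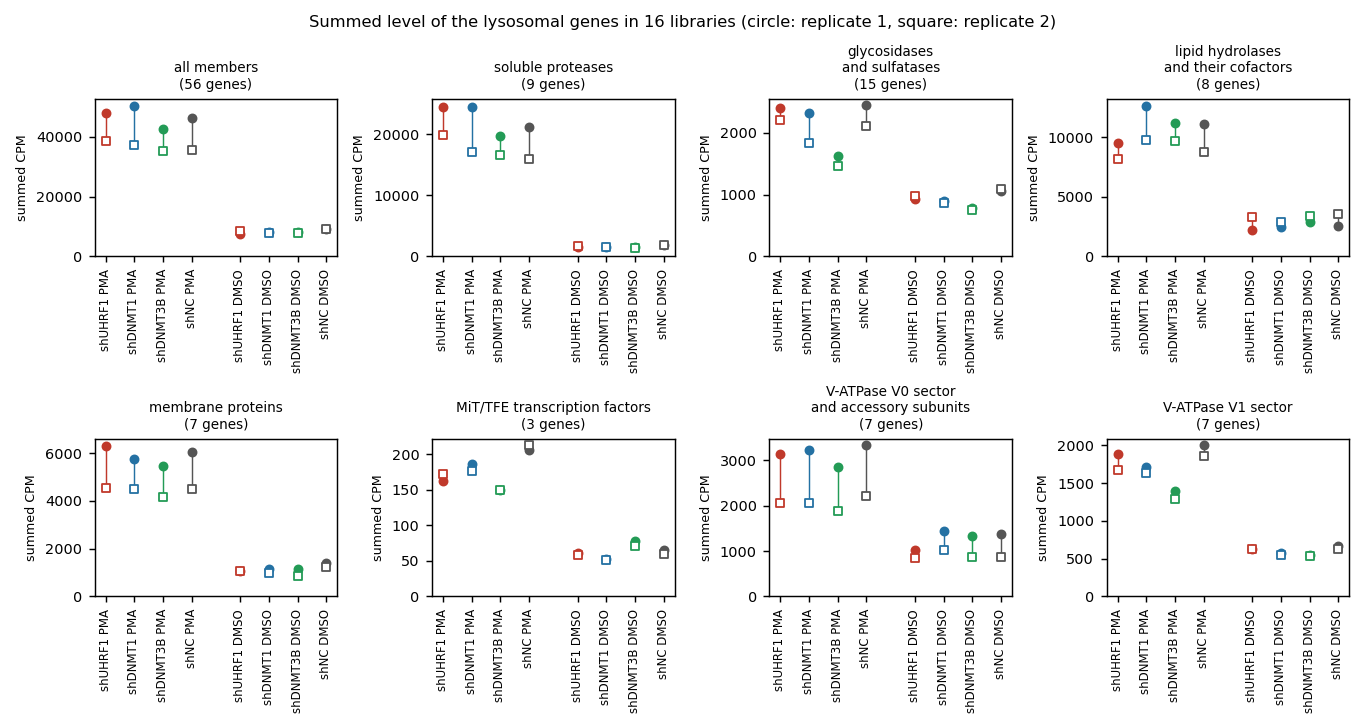
Summed CPM (linear axis) of all 56 members and of each role group in the 16 libraries, with PMA left of DMSO. Circles stand for libraries numbered 1 and squares for those numbered 2. The sum of all members lies between 35212 and 50221 CPM in PMA and between 7393 and 9317 CPM in DMSO, without overlap.

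Among the soluble proteases, 8 of 9 were called higher by PMA in shNC, with a median log2 fold change of 2.61. CTSL, a cysteine protease (ENSG00000135047, chr9:87724051-87731469, plus strand, hg38), reached 6633 and 5181 CPM in shNC PMA libraries against 118 and 113 CPM in DMSO, a 51.1-fold level (log2 5.68, SE 0.28, with an adjusted p of 5.21e-09 by edgeR's quasi-likelihood test). In the other lines it was 9819 and 7435 CPM (shUHRF1), 5993 and 4692 CPM (shDNMT1) and 5697 and 4987 CPM (shDNMT3B) in PMA, against 61.3 to 74.9 CPM in their 6 DMSO libraries. All 8 PMA libraries stood far above all 8 DMSO libraries, and CTSL had the largest log2 fold change of the module in shNC. LGMN, the asparaginyl endopeptidase legumain, was 22.8 and 19.7 CPM in shNC PMA libraries against 0.789 and 0.319 CPM in DMSO (5.24 on the log2 scale, SE 0.34, adjusted p = 4.75e-08). The PMA and DMSO libraries of LGMN did not overlap. Its fold change rested on few reads in DMSO, with 15 and 6 counts in shNC against 434 and 273 in PMA. CTSB (4.15), the aspartic protease CTSD (3.39) and the aminopeptidase CTSH (2.61) also rose in shNC on the log2 scale. CTSL has 6 named pseudogenes and LGMN 1, with which reads could have been shared.

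CTSC, the dipeptidyl peptidase that activates serine proteases of granules, was the 1 protease not called in shNC, and the 1 member whose estimate there was negative. It was 129.9 and 114 CPM in shNC PMA libraries against 168 and 141 CPM in DMSO (-0.34 on the log2 scale, SE 0.19, adjusted p = 0.150). With the replicate number as a block it was called lower (adjusted p = 0.0218), and likewise with upper-quartile factors (-0.62, adjusted p = 0.0159). In the other 3 lines CTSC was called higher, with 233 and 165 CPM against 124 and 137 CPM in shUHRF1, 230.1 and 200.1 CPM against 154 and 126 CPM in shDNMT1, and 202 and 172 CPM against 119.8 and 110.4 CPM in shDNMT3B. The log2 fold changes were 0.61, 0.62 and 0.70 (adjusted p = 0.0179, 0.0163 and 0.0104 by edgeR's quasi-likelihood test). PMA libraries lay above DMSO libraries in these 3 lines and below them in shNC. With upper-quartile factors the 3 estimates stayed positive (0.30, 0.36 and 0.46) and were no longer called (adjusted p = 0.199, 0.135 and 0.0691).

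Of the glycosidases and sulfatases, 11 of 15 were called higher in shNC, with a median log2 fold change of 1.14. IDS, the iduronate sulfatase that acts on heparan and dermatan sulfate, was 128 and 197 CPM in shNC PMA libraries against 18.8 and 19.6 CPM in DMSO (3.08 on the log2 scale, SE 0.32, adjusted p of 4.21e-06 in edgeR's quasi-likelihood test). HEXA, a subunit of beta-hexosaminidase, was 248 and 236 CPM against 39.7 and 72.0 CPM (2.12, SE 0.27, adjusted p = 2.76e-05). Neither gene overlapped between treatments in any line. The 4 members not called in shNC were the beta-galactosidase GLB1 (0.52), the heparan sulfate glucosaminidase NAGLU (0.34) and the fucosidases FUCA1 (0.45) and FUCA2 (0.09). FUCA1 was called higher with the replicate block (adjusted p = 0.0200), and the estimate for FUCA2 turned to -0.19 with upper-quartile factors in shNC. The group had 13, 14 and 13 members called higher in shUHRF1, shDNMT1 and shDNMT3B.

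Of the lipid hydrolases and their cofactors, 7 of 8 were called higher in shNC, with a median log2 fold change of 2.77. PSAP, the precursor of the saposins that help hydrolases reach sphingolipids, was 3344 and 2951 CPM in PMA against 166 and 325 CPM in DMSO (3.68, SE 0.36, adjusted p = 2.49e-06 by edgeR's quasi-likelihood test). NPC2, which hands cholesterol to NPC1, was 393 and 259 CPM against 24.1 and 34.9 CPM (3.47, SE 0.30, adjusted p = 8.83e-07). Both were above their DMSO libraries in all 4 lines, with 2670.4 to 3536 CPM against 156 to 331 CPM for PSAP and 150.4 to 410.0 CPM against 20.8 to 34.9 CPM for NPC2. The acid lipase LIPA (3.21) and the ganglioside activator GM2A (2.79) rose in shNC as well, while the thioesterase PPT1 (0.57, adjusted p = 0.109) was called there only with the block (adjusted p = 0.0362). PPT1 was abundant in both treatments, at 3861 and 2779 CPM in PMA against 1878 and 2581 CPM in DMSO.

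Among the membrane proteins, 6 of 7 were called higher in shNC with a median of 2.15, and LAMP2 (0.54, adjusted p = 0.134) was the exception. NPC1, the transporter that exports cholesterol from the lysosome (ENSG00000141458, chr18:23506184-23586506, minus strand, hg38), was 282 and 314 CPM in shNC PMA libraries against 20.1 and 23.2 CPM in DMSO, a 13.8-fold level (3.78 on the log2 scale, SE 0.17, adjusted p of 2.17e-09 in edgeR's quasi-likelihood test). The log2 fold change was 3.16, 3.44 and 3.22 in shUHRF1, shDNMT1 and shDNMT3B. SCARB2, also called LIMP-2, carries glucocerebrosidase to the lysosome (ENSG00000138760, chr4:76158737-76234536, minus strand, hg38). It was 1069.8 and 888 CPM in shNC PMA libraries against 125 and 125 CPM in DMSO (2.96, SE 0.20, adjusted p = 8.39e-08), and rose by 4.02, 4.50 and 3.99 in shUHRF1, shDNMT1 and shDNMT3B. For both genes the lowest PMA library of the series was several times the highest DMSO library.

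All 3 MiT/TFE factors were called higher by PMA in all 4 lines after TMM scaling. MITF, at chr3:69739456-69968336 (plus strand, hg38), was 56.3 and 58.8 CPM in shNC PMA libraries against 2.95 and 4.199 CPM in DMSO, a 16.1-fold level (4.01 on the log2 scale, SE 0.24, adjusted p of 2.67e-08 in edgeR's quasi-likelihood test). TFEB was 71.4 and 76.5 CPM against 29.8 and 24.1 CPM (1.46, SE 0.18, adjusted p = 2.34e-05). TFE3 was 78.3 and 77.1 CPM against 32.8 and 30.8 CPM (1.29, SE 0.13, adjusted p = 2.49e-06). In every line MITF had the largest log2 fold change of the 3, at 3.19, 3.81 and 3.36 in shUHRF1, shDNMT1 and shDNMT3B, where TFEB was at 1.42, 1.97 and 1.10 and TFE3 at 1.14, 0.86 and 0.34. In shDNMT3B TFE3 was 58.5 and 56.2 CPM in PMA against 45.6 and 44.7 CPM in DMSO (adjusted p = 0.0389), groups that did not overlap, and with upper-quartile factors this estimate was 0.10 and not called (adjusted p = 0.528). These are transcript levels, while these factors are known to be controlled by movement of the protein into the nucleus, which was not measured.

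Transcripts of the proton pump were higher in PMA in both sectors. All 7 V1 subunits were called higher in each of the 4 lines, with a median log2 fold change of 1.63 in shNC. ATP6V1H, a regulatory subunit, was 189 and 182 CPM in shNC PMA libraries against 34.9 and 35.6 CPM in DMSO (2.399, SE 0.14, adjusted p = 1.66e-08 by edgeR's quasi-likelihood test). ATP6V1C1, a stator subunit that links both sectors, was 145 and 165 CPM against 36.6 and 52.9 CPM (1.79, SE 0.24, adjusted p = 4.06e-05). Their PMA and DMSO libraries were separate in all 4 lines. Of the V0 and accessory subunits, 7, 4, 5 and 6 of 7 were called higher in shUHRF1, shDNMT1, shDNMT3B and shNC. ATP6AP2, the accessory subunit also known as the prorenin receptor, was 665 and 462 CPM in shNC PMA libraries against 195 and 134 CPM in DMSO (1.78, SE 0.33, adjusted p = 0.000552). ATP6V0D1 was 179 and 161 CPM against 41.2 and 58.4 CPM (1.77, SE 0.32, adjusted p = 0.000499). ATP6V0C, the proteolipid of the proton-conducting ring, was 398 and 214 CPM against 191 and 95.3 CPM, with both PMA libraries above both DMSO libraries, and in shNC was called only with the block (1.09, adjusted p = 0.0889, with the block 9.19e-08). It has 4 named pseudogenes.

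Libraries numbered 1 stood above their partners in 8 of 8 groups for 15 members (26.8%, against 12.8% of all genes tested), among them 5 of the 7 V0 and accessory subunits (71.4%). The 15 were GLA, NEU1, MANBA, FUCA1, FUCA2, GM2A, CD63, ATP6V0B, ATP6V0C, ATP6V0E1, ATP6AP1, ATP6AP2, ATP6V1D, ATP6V1E1 and ATP6V1F. The reverse held in 8 of 8 groups for GLB1, IDS, MITF and ATP6V1C1 (7.14% of members against 12.6% of all genes). Depth and the mitochondrial share differ between the numbers as given above, and their part in these differences was not tested.

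Of 9 V-ATPase genes tested outside the 56 members, 4 were called higher by PMA in shNC and 3 lower, beside 28.4% and 26.0% of all genes. ATP6V0D2, the form of the d subunit known from osteoclasts, was 90.3 and 74.8 CPM in shNC PMA libraries against 0.263 and 0.425 CPM in DMSO (7.88 on the log2 scale, SE 0.44, adjusted p of 3.39e-08 in edgeR's quasi-likelihood test). In the other lines it was 72.1 and 55.6 CPM (shUHRF1), 88.9 and 85.5 CPM (shDNMT1) and 21.8 and 19.2 CPM (shDNMT3B) in PMA, against at most 0.370 CPM in their DMSO libraries. TCIRG1, the a3 subunit of osteoclasts and macrophages, was 498 and 446 CPM against 82.6 and 88.1 CPM (2.47, SE 0.18, adjusted p = 1.63e-07), and ATP6V1G1 116 and 117 CPM against 47.9 and 45.4 CPM (1.32, adjusted p = 5.94e-05). The 3 genes called lower, named after their values were seen, were ATP6V0E2 (-1.45), ATP6V1E2 (-1.41) and ATP6V1G2 (-1.43). ATP6V1G2 rested on few reads, with 7 and 3 counts in shNC PMA libraries against 18 and 13 in DMSO. ATP6V0E2 was 8.62 and 7.43 CPM in PMA against 23.9 and 19.99 CPM in DMSO, while its widely expressed counterpart ATP6V0E1 was 574 and 349 CPM against 272 and 140.1 CPM.

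**Figure D3:**
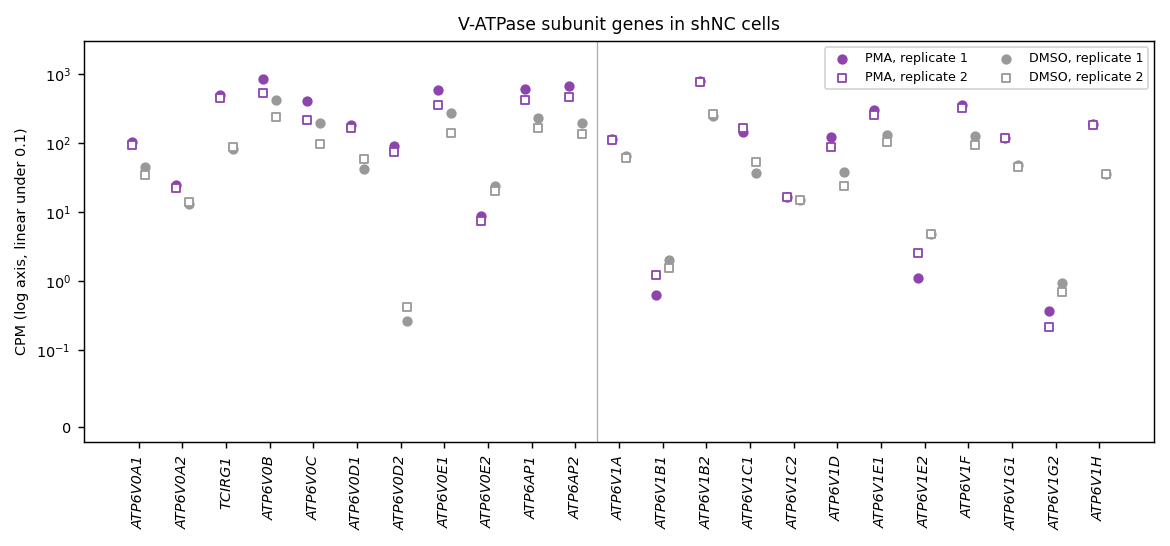
CPM (logarithmic above 0.1, linear below) of V-ATPase subunit genes in the 2 PMA and 2 DMSO libraries of shNC, PMA left of DMSO, with V0 and accessory subunits left of the line and V1 subunits right of it. ATP6V0D2 lies at 74.8 and 90.3 CPM in PMA and under 1 CPM in DMSO, and ATP6V0E2, ATP6V1E2 and ATP6V1G2 lie lower in PMA.

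Of 109 further genes of the lysosomal pathway, 106 were tested. In shNC 64 were called higher by PMA and 10 lower, beside 28.4% and 26.0% of all genes. Their median log2 fold change was 0.77. The counts were 70 higher and 10 lower in shUHRF1, 69 and 6 in shDNMT1, and 57 and 5 in shDNMT3B. Shares of all genes in the same order were 29.4% and 25.5%, 28.6% and 24.1%, and 25.2% and 19.7%. Other enzymes and cofactors had 17 of 30 higher and 3 lower in shNC, among them the cysteine protease CTSS (722 and 612 CPM in PMA against 64.2 and 65.9 CPM in DMSO) and the phosphatase ACP5 (32.6 and 29.0 CPM against 0 and 0.0532 CPM). Other membrane proteins and transporters had 15 of 23 higher and 2 lower, led by the metal transporter SLC11A1 (151 and 168 CPM against 5.84 and 4.31 CPM). The mannose-6-phosphate tagging and sorting genes had 6 of 13 higher and 1 lower, where the adaptor GGA1 was 107 and 104 CPM against 42.8 and 41.1 CPM and its relative GGA2 65.0 and 65.5 CPM against 115 and 134 CPM. GGA1 thus rose and GGA2 fell with PMA, each without overlap.

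Genes of mTORC1 and TFEB control, with GPNMB counted among them, had 10 of 16 higher and 0 lower in shNC, beside 28.4% and 26.0% of all genes. FNIP2, a partner of folliculin, which acts on RAG GTPases, was 218 and 290.2 CPM in PMA against 6.26 and 5.37 CPM in DMSO (log2 fold change 5.45, adjusted p = 6.99e-09 by edgeR's quasi-likelihood test). GPNMB, a glycoprotein that is a known target of MITF, was 1269 and 1091 CPM against 19.7 and 30.8 CPM (5.55, adjusted p = 3.86e-08). The PMA libraries of both stood far above the DMSO libraries. Genes of lysosome positioning and fusion had 12 of 15 higher and 1 lower, among them the adaptor PLEKHM1 (50.1 and 61.6 CPM against 9.68 and 10.7 CPM).

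Levels of different genes were compared per length, as counts per kilobase of merged exon scaled to the same total in every library. In shNC PMA libraries the highest levels per length were CTSD at 3108 ± 312, PSAP at 2685 ± 270, PPT1 at 2581 ± 112, CTSL at 2547 ± 36.7 and CD63 at 2333 ± 381 (SD, n = 2), and neighbours in the order PSAP, PPT1, CTSL, CD63 differed by less than the larger SD of the pair. With the length of the canonical transcript, a choice added after seeing the data, CTSL (5773) came before CTSD (5294). In shNC DMSO libraries PPT1 (2011 ± 1286) was highest, followed by CD63 (550 ± 89.0). The lowest 3 in PMA were IDUA at 4.25, CTSC at 13.01 and LGMN at 14.6. The level of LGMN per length was thus far below that of CTSL in PMA, although both had large fold changes. Exons of 13 members overlap another gene on the same strand and those of 22 one on the opposite strand, and whether counting used strand was not given in the sources used here.

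The next comparisons set each knockdown line beside shNC within one treatment. The 3 lines share the 2 shNC libraries of a treatment, so their results are given side by side and not as independent evidence. The lines are named by their labels, since no hairpin target was called lower in its line. Where groups of 2 libraries are said not to overlap, here or above, the same values gave the call, so this adds no support. The share of all genes without overlap is not given for the knockdown comparisons. In DMSO few members were called without the replicate block. Libraries labelled shUHRF1 had 0 higher and 0 lower, where 0.170% and 1.15% of all genes were called, with 6 members at an unadjusted p under 0.05, 0 higher and 1 lower by DESeq2, 0 and 0 by the exact test after DEGES, and 0 and 6 with the replicate block (where 4.59% and 6.87% of all genes were called). Libraries labelled shDNMT1 had 0 higher and 1 lower (0.570% and 3.39% of all genes), and 0 and 13 with the block (4.34% and 9.23%). Libraries labelled shDNMT3B had 1 higher and 3 lower (1.62% and 2.89% of all genes), and 2 and 18 with the block (7.28% and 11.4%). The median log2 fold change of the members was -0.17, -0.22 and -0.31 in the 3 lines, beside medians of all genes of -0.04, -0.04 and -0.02.

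SCARB2 was the member lower in DMSO libraries labelled shDNMT1, at 65.0 and 54.6 CPM against 125 and 125 CPM in shNC (-1.07 on the log2 scale, SE 0.19, adjusted p of 0.00636 in edgeR's quasi-likelihood test). It was also lower in DMSO libraries labelled shDNMT3B, at 75.9 and 69.6 CPM (-0.79, SE 0.19, adjusted p = 0.0349), and it was 91.7 and 87.5 CPM in those labelled shUHRF1, where it was called lower only with the block. All 6 libraries lay below both shNC libraries. Without shDNMT1 DMSO replicate 2 the call in that line was lost (adjusted p = 0.0875), and the call in shDNMT3B was lost when any 1 of the 4 libraries compared was left out (0.134 to 0.169).

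ARSB, the sulfatase of dermatan and chondroitin sulfate, was 12.7 and 13.2 CPM in DMSO libraries labelled shDNMT3B against 31.7 and 39.1 CPM in shNC (-1.45 on the log2 scale, SE 0.16, adjusted p of 0.000169 in edgeR's quasi-likelihood test). NPC1 was 12.95 and 14.4 CPM against 20.1 and 23.2 CPM (-0.67, SE 0.16, adjusted p = 0.0298). TFE3 was the 1 member higher, at 45.6 and 44.7 CPM against 32.8 and 30.8 CPM (0.50, SE 0.13, adjusted p = 0.0392). None of the 3 overlapped between the groups. A fit of only the libraries compared ended the ARSB call (adjusted p = 0.0625 by edgeR's quasi-likelihood test). The ARSB call held with each library left out, while those of NPC1 (adjusted p 0.0663 to 0.213) and TFE3 (0.124 to 0.217) were lost when any 1 of the 4 libraries compared was left out.

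In PMA, libraries labelled shUHRF1 had 0 members higher and 3 lower, where 2.04% and 1.65% of all genes were called. Libraries labelled shDNMT1 had 1 higher and 2 lower (8.50% and 6.35% of all genes). Libraries labelled shDNMT3B had 1 higher and 12 lower (11.3% and 9.05% of all genes). The 12 lower members were 21.4% of the module, and its median log2 fold change in that line was -0.31 beside 0.04 for all genes. The medians were -0.06 and -0.05 in shUHRF1 and shDNMT1, beside 0.02 and 0.01. With the block, the counts became 4 higher and 7 lower in shUHRF1 (8.35% and 6.88% of all genes in that fit), 9 and 10 in shDNMT1 (16.3% and 15.1%), and 2 and 24 in shDNMT3B (20.5% and 19.5%). In each fit that left out 1 library of this comparison, fewer than 12 members were called lower in shDNMT3B. The shares of all genes called in these fits are not given here, so this does not show a loss particular to the members.

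**Figure D4:**
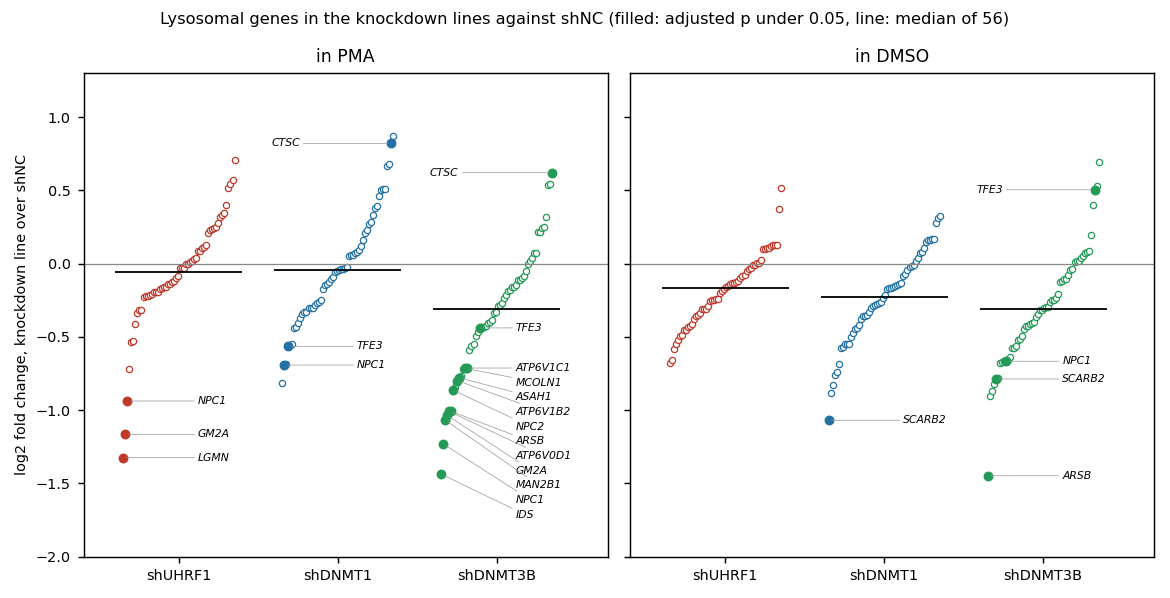
Log2 fold change of each knockdown line over shNC (vertical axis) for the 56 members, in PMA left and in DMSO right, with the median as a line and called members filled and named. The 12 members called lower in PMA libraries labelled shDNMT3B range in log2 fold change between -1.44 (IDS) and -0.44 (TFE3).

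NPC1 was the 1 member called lower in all 3 lines in PMA, where 0.8% of all genes were. It was 149.5 and 162 CPM in shUHRF1, 164 and 205 CPM in shDNMT1 and 129 and 126 CPM in shDNMT3B, against 282 and 314 CPM in shNC. All 6 libraries lay below both shNC libraries, with the lowest levels in shDNMT3B. The log2 fold changes were -0.94 (SE 0.15, adjusted p = 0.00519), -0.69 (SE 0.15, adjusted p = 0.00814) and -1.23 (SE 0.15, adjusted p = 0.000153) by edgeR's quasi-likelihood test. The call in shUHRF1 was lost without shUHRF1 PMA replicate 1 (adjusted p = 0.0594) or shNC PMA replicate 2 (0.0585), and that in shDNMT1 without shDNMT1 PMA replicate 1 (0.0713) or shNC PMA replicate 2 (0.0665). The call in shDNMT3B held with each library left out. Exons of NPC1 overlap RMC1 on the opposite strand.

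The other members lower in PMA libraries labelled shUHRF1 were LGMN and GM2A. LGMN was 8.04 and 8.97 CPM against 22.8 and 19.7 CPM in shNC (-1.32 on the log2 scale, SE 0.26, adjusted p of 0.0158 in edgeR's quasi-likelihood test). GM2A, the cofactor for degradation of the ganglioside GM2, was 253 and 188 CPM against 574 and 415 CPM (-1.16, SE 0.30, adjusted p = 0.0494). Neither overlapped between the groups, and both calls were lost when any 1 of the 4 libraries compared was left out (adjusted p 0.0685 to 0.133 for LGMN and 0.0975 to 0.330 for GM2A). GM2A was also lower in PMA libraries labelled shDNMT3B, at 277 and 205 CPM (-1.03, adjusted p = 0.0262).

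In PMA libraries labelled shDNMT1, TFE3 was 55.3 and 49.7 CPM against 78.3 and 77.1 CPM in shNC (-0.56 on the log2 scale, SE 0.12, adjusted p of 0.00908 in edgeR's quasi-likelihood test). CTSC was higher in them, at 230.1 and 200.1 CPM against 129.9 and 114 CPM (0.82, SE 0.19, adjusted p = 0.0134), and also in those labelled shDNMT3B, at 202 and 172 CPM (0.62, SE 0.19, adjusted p = 0.0393). Both genes were separate between these lines and shNC. The TFE3 call was lost without shDNMT1 PMA replicate 2 (adjusted p = 0.0722) or shNC PMA replicate 1 (0.0644), and the CTSC call in shDNMT1 without shDNMT1 PMA replicate 1 (0.0901), shNC PMA replicate 1 (0.0567) or shNC PMA replicate 2 (0.109).

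**Figure D5:**
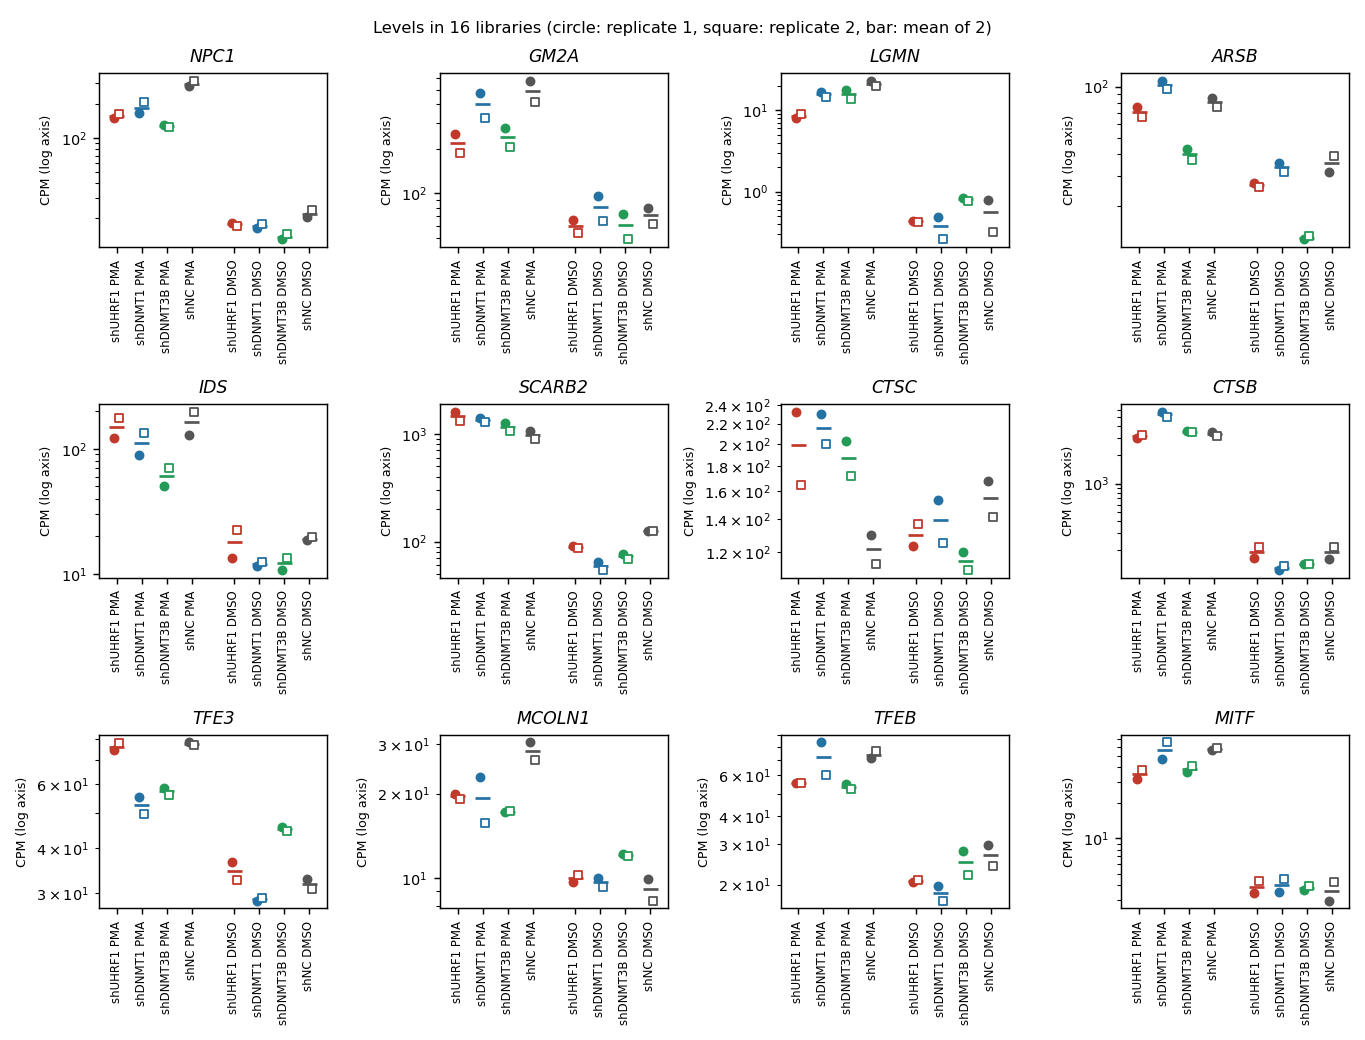
CPM on a logarithmic axis of NPC1, GM2A, LGMN, ARSB, IDS, SCARB2, CTSC, CTSB, TFE3, MCOLN1, TFEB and MITF in all 16 libraries, PMA left of DMSO and shNC last, with a bar at the mean of the 2 libraries of a group. NPC1 lies between 126 and 205 CPM in the 6 knockdown libraries in PMA and at 282 and 314 CPM in shNC.

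The 12 members lower in PMA libraries labelled shDNMT3B came from 6 of the 7 role groups, with 3 glycosidases or sulfatases, 3 lipid hydrolases or cofactors, 2 membrane proteins, 1 MiT/TFE factor, 1 V0 and 2 V1 subunits, and no protease. ARSB was 43.0 and 37.3 CPM against 85.9 and 75.6 CPM in shNC (-1.01 on the log2 scale, SE 0.15, adjusted p of 0.000759 in edgeR's quasi-likelihood test). ATP6V1B2, a subunit of the ATP-hydrolysing head, was 451 and 436 CPM against 791 and 750.1 CPM (-0.80, SE 0.15, adjusted p = 0.00254). IDS was 50.3 and 70.1 CPM against 128 and 197 CPM (-1.44, SE 0.30, adjusted p = 0.00545). All 3 lay below both shNC libraries without overlap.

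ASAH1, the acid ceramidase, was 385 and 378 CPM in the same libraries against 669 and 640.0 CPM in shNC (-0.78 on the log2 scale, SE 0.17, adjusted p of 0.00776 in edgeR's quasi-likelihood test). MAN2B1, the lysosomal alpha-mannosidase, was 202 and 212 CPM against 449 and 419 CPM (-1.07, SE 0.24, adjusted p = 0.00807). These too did not overlap. The others were MCOLN1 (-0.71), TFE3 (-0.44), GM2A (-1.03), ATP6V0D1 (-1.01), NPC2 (-0.86) and ATP6V1C1 (-0.71), with adjusted p between 0.0172 and 0.0488. Their calls were not followed singly when 1 library was left out. Calls held with each library left out for NPC1, ARSB and ATP6V1B2. Those of IDS were lost without shDNMT3B PMA replicate 1 (adjusted p = 0.0675) or shNC PMA replicate 2 (0.0581), those of ASAH1 without shDNMT3B PMA replicate 1 (0.0548), shDNMT3B PMA replicate 2 (0.0572) or shNC PMA replicate 1 (0.0513), and those of MAN2B1 without shDNMT3B PMA replicate 1 (0.0665) or shNC PMA replicate 1 (0.0503). Upper-quartile factors gave 7 members lower in this comparison. Of the further pathway genes tested, 10 were higher and 15 lower in these libraries, beside 11.3% and 9.05% of all genes. ATP6V0D2 was among the lower ones (-2.01).

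The last comparisons asked whether the response to PMA itself differed between a knockdown line and shNC, as the difference of the 2 log2 fold changes. For shUHRF1 0 members were called higher and 0 lower, where 0.739% and 0.109% of all genes were, with 7 members at an unadjusted p under 0.05 and 3 higher and 0 lower by DESeq2. For shDNMT1 2 were higher and 0 lower (5.64% and 1.07% of all genes), and for shDNMT3B 2 were higher and 2 lower (5.08% and 1.70% of all genes). The median difference over the members was 0.15, 0.13 and 0.02 in the 3 lines, beside 0.06, 0.06 and 0.07 over all genes. With the block, shUHRF1 had 3 higher and 3 lower (6.02% and 2.47% of all genes in that fit), shDNMT1 had 9 and 3 (12.8% and 5.81%), and shDNMT3B had 3 and 7 (12.6% and 6.97%).

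SCARB2 had a larger response than in shNC in both lines, by 1.53 in shDNMT1 (SE 0.27, adjusted p = 0.00364 by edgeR's quasi-likelihood test) and by 1.03 in shDNMT3B (SE 0.27, adjusted p = 0.0363). Its PMA libraries were 1411 and 1290.4 CPM in shDNMT1 and 1266 and 1052 CPM in shDNMT3B, against 1069.8 and 888 CPM in shNC, and its DMSO libraries 65.0 and 54.6 CPM and 75.9 and 69.6 CPM against 125 and 125 CPM. SCARB2 was thus lower than shNC in DMSO in these lines, while in PMA it was not called different and overlapped shNC in shDNMT3B. The difference in shDNMT3B was lost when any 1 of the 8 libraries compared was left out (adjusted p 0.0538 to 0.152), and that in shDNMT1 held.

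CTSB also had a larger response in shDNMT1, by 1.23 (SE 0.31, adjusted p = 0.0302 by edgeR's quasi-likelihood test). Its PMA libraries were 5719.6 and 4990.3 CPM in shDNMT1 against 3539 and 3143 CPM in shNC, and its DMSO libraries 123 and 134 CPM against 162 and 214 CPM. The call was lost when any of 7 of the 8 libraries was left out (adjusted p 0.0511 to 0.126), and kept without shNC DMSO replicate 1.

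In shDNMT3B, TFE3 responded less to PMA than in shNC, by -0.94 (SE 0.18, adjusted p = 0.00575 by edgeR's quasi-likelihood test). Its level was higher than in shNC in DMSO and lower in PMA, without overlap in either treatment, and the call held with each library left out. MCOLN1, the calcium channel of the lysosomal membrane (ENSG00000090674, chr19:7522624-7534009, plus strand, hg38), also responded less, by -1.12 (SE 0.26, adjusted p = 0.0231). It was 17.2 and 17.3 CPM in PMA libraries labelled shDNMT3B against 30.4 and 26.2 CPM in shNC, and 12.2 and 12.01 CPM against 9.94 and 8.35 CPM in DMSO. Its PMA libraries lay below those of shNC and its DMSO libraries above them. CTSC differed in the other direction, by 1.05 (SE 0.27, adjusted p = 0.0381), with the values given above. The MCOLN1 call was lost when any 1 of 6 of the 8 libraries was left out (adjusted p 0.0593 to 0.0995) and kept without shNC PMA replicate 2 or shNC DMSO replicate 1. The CTSC call was lost when any 1 of 7 was left out (0.0602 to 0.151) and kept without shNC DMSO replicate 2. An exon of MCOLN1 overlaps PNPLA6 on the same strand.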

How the data were processed

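RNA of 16 THP-1 samples in 8 groups was sequenced as stranded paired-end mRNA libraries (TruSeq). Reads were aligned by the authors (hg38, STAR 2.4.0b). HTSeq 0.6.1p1, Cufflinks 2.1.1 and edgeR also stand in the submitters' notes. The strand setting and annotation release of the counting are not given in the sources used here. The deposited table holds whole-number counts per Ensembl gene, not normalized, and every column was used. Libraries of wild-type THP-1 cells were not analysed here.

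The members, lists and tests were chosen with earlier results of these data known. Genes were named by GENCODE release 44. Genes with too few counts were removed by filterByExpr of edgeR 4.0.16 in R 4.3.3 (minimum count 10, minimum total 15), which left 16503. TMM factors and 1 robust quasi-likelihood fit of all 8 groups (8 residual degrees of freedom, common dispersion 0.0439) gave 13 comparisons, each adjusted after Benjamini and Hochberg over all genes tested, with calls at an adjusted p under 0.05. Levels are CPM scaled by TMM, and SE is the standard error of a log2 fold change. Values in every library are given for the 2 members with the largest called change by PMA in shNC in each role group, the MiT/TFE factors, up to 6 called members with the smallest adjusted p in each other comparison, and up to 3 further pathway genes per list. CTSC in shNC, ATP6V0C, PPT1, GM2A in shDNMT3B and the isoforms of pump subunits called lower were added after their values were seen. Depth limits low genes, and no interval beyond the SE was computed.

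Same-numbered libraries deviated together: the correlation of their deviations from the group means was over 0.1 in 28 of 28 pairs of groups (0.220 to 0.508), so the numbers were taken to pair samples, and a fit with the number as a block (7 residual degrees of freedom, common dispersion 0.0115) was run as an alternative. Unless the block is named, calls, SE and fits with 1 library left out are from the fit without it, which ignores this pairing. Other settings tried were upper-quartile factors, DESeq2 1.42.0, all genes with any filter on counts removed, a fit restricted to the compared libraries, the exact test following DEGES normalization (3 rounds), and omission of 1 library at a time, with the remaining library of its group assumed to vary like the other groups. The fit was also run on simulated counts with known changes, for PMA against DMSO in shNC and for shUHRF1 against shNC in DMSO. These counts were drawn without the shared deviation of same-numbered libraries, so they cannot show how the fit handles it. Tables were joined with Python 3.11.15, pandas 2.3.3 and NumPy 2.4.6, and plots drawn with matplotlib 3.10.9.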

Additional observations from a re-analysis of the deposited data

Results flagged for a closer look

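Genes are listed here because their response to PMA differed from that of shNC by edgeR's quasi-likelihood test of the difference itself. In shDNMT1 the difference of the log2 fold changes, shDNMT1 minus shNC, was 1.53 for SCARB2 (adjusted p = 0.00364) and 1.23 for CTSB (adjusted p = 0.0302). In shDNMT3B the difference, shDNMT3B minus shNC, was 1.05 for CTSC (adjusted p = 0.0381), 1.03 for SCARB2 (adjusted p = 0.0363), -1.12 for MCOLN1 (adjusted p = 0.0231) and -0.94 for TFE3 (adjusted p = 0.00575). Both comparisons use the same 4 shNC libraries, and neither hairpin target was called lower in its own line. SCARB2 in shDNMT1 and TFE3 in shDNMT3B kept the call with each library left out, while the other 4 lost it in at least 6 of the 8 fits that leave out 1 library. No group had enough libraries for a check of single outlying samples.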

How the results depend on the processing

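With 2 libraries per group, small counts of calls moved with most settings, and the cause was not tested. Except for the block, shares of all genes are not given beside these counts or beside those at an unadjusted p. The counts thus do not show whether calls of members moved more than those of other genes. The calls of the genes described with values in every library kept their direction, while the uncalled estimate for FUCA2 turned negative with upper-quartile factors in shNC (-0.19) and shDNMT1 (-0.20). PMA against DMSO kept its counts higher within 1.5 times under every setting, and 1 member (CTSC) was lower in shNC with the replicate block or upper-quartile factors. With the replicate block, which pairs libraries by number, members higher and lower were 0 and 6 (shUHRF1), 0 and 13 (shDNMT1) and 2 and 18 (shDNMT3B) in DMSO, 4 and 7, 9 and 10, and 2 and 24 in PMA, and 3 and 3, 9 and 3, and 3 and 7 for the differences of the PMA response. The block ended none of the calls of the 13 comparisons for the 56 members. DESeq2 gave 1 lower in shUHRF1, 4 lower in shDNMT1, and 2 higher and 7 lower in shDNMT3B in DMSO, 2 higher in shUHRF1 and 4 higher in shDNMT1 in PMA, and 3 and 5 higher for the differences of shUHRF1 and shDNMT1. Upper-quartile factors gave 2 higher and 1 lower in shDNMT3B in DMSO, and in PMA 3 higher in shDNMT1 and 2 higher and 7 lower in shDNMT3B. Without the filter on low counts, 4 were lower in shDNMT1 and 0 higher and 6 lower in shDNMT3B in DMSO, 2 higher in shDNMT1 and 0 higher in shDNMT3B in PMA, and 1 higher for the difference of shDNMT3B. A fit of only the libraries compared gave 0 lower in shDNMT1 and 0 higher and 0 lower in shDNMT3B in DMSO, 2 higher and 0 lower in shDNMT1 and 2 higher in shDNMT3B in PMA, and 1 higher for the difference of shDNMT3B. The exact test after DEGES gave 2 lower in shDNMT1 and 0 higher in shDNMT3B in DMSO, and 3 higher and 1 lower in shDNMT1 and 2 higher in shDNMT3B in PMA; it gives no value for the differences.

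Leaving out 1 library at a time, without the block, members higher with PMA ranged over 46 to 53, 43 to 51, 41 to 47 and 40 to 47 in shUHRF1, shDNMT1, shDNMT3B and shNC, with 0 lower. In DMSO, members higher and lower ranged over 0 to 0 and 0 to 1 (shUHRF1), 0 to 0 and 0 to 1 (shDNMT1), and 0 to 1 and 1 to 1 (shDNMT3B). In PMA the ranges were 0 to 0 and 0 to 1, 0 to 2 and 1 to 2, and 0 to 0 and 3 to 8. For the differences they were 0 to 1 and 0 to 0, 1 to 2 and 0 to 0, and 0 to 1 and 1 to 2. Calls of single genes lost in these fits stand in the report. A fit of only the libraries compared also ended the calls of ARSB in shDNMT3B and SCARB2 in shDNMT1 and shDNMT3B in DMSO. It ended those of NPC1 and TFE3 in shDNMT3B in DMSO and in shDNMT1 in PMA, and of GM2A in shUHRF1 in PMA. The differences of CTSB in shDNMT1 and SCARB2 in shDNMT3B lost their calls in it as well. Some of these calls were also lost with upper-quartile factors, without the filter, or with the exact test.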
